A study of Rattus norvegicus with 8 samples.

Results

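Genes that encode subunits of ligand-gated ion channels for glutamate, glycine, acetylcholine and ATP were examined in purified rat retinal ganglion cells (RGCs). They were chosen by symbol, as every ionotropic glutamate receptor, glycine receptor, nicotinic receptor and P2X receptor gene in the part of the study's gene table that was at hand. This gave 10 of the 32623 Ensembl gene IDs counted, and 10 of the 1998 IDs that could be paired with a symbol. They were Grik1 and Grik2 (kainate receptors), Grin2c (NMDA receptor), Glra2 and Glra4 (glycine receptors), Chrna9 and Chrne (nicotinic receptors), and P2rx4, P2rx6 and P2rx7 (P2X receptors). AMPA receptor genes and the remaining subunits of these families were not analysed here. The retinas came from Sprague Dawley rats of embryonic day 21 (E21) or 11 days after birth (P11), with no other treatment or genetic change at either stage. Retinas were digested with papain, with more enzyme for the P11 tissue, and the RGCs were kept on plates coated with an antibody against Thy1 after macrophages had been removed on another plate. After removal of ribosomal RNA, total RNA of 4 litters at each stage was sequenced, so each of the 8 libraries pooled the cells of a litter. The comparison asks how receptor expression differs between RGCs that still grow axons and RGCs shortly before eye opening.

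RGCs are driven by glutamate released from bipolar cells and are inhibited by glycine and GABA from amacrine cells. Kainate and NMDA receptors are glutamate receptors assembled from subunits. In NMDA receptors the GluN2 subunit, a kind of which Grin2c encodes, sets gating and magnesium block. Glycine receptors are chloride channels, nicotinic receptors are cation channels opened by acetylcholine, and P2X receptors are cation channels opened by extracellular ATP.

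Between 13899299 and 20116017 reads were counted on genes per library, and the stages did not differ in depth beyond the spread between libraries (two-sided exact permutation test, p = 0.543, n = 4). Levels are given as TMM-normalized CPM, the counts of a gene relative to the size of its library, with the SD over 4 libraries, and changes as the log2 fold change of E21 over P11, which is negative for a gene higher at P11. A gene was called changed when its adjusted p was under 0.01 and its log2 fold change was past 1 in size in edgeR's quasi-likelihood test across all genes. A floor of 3 counts corresponded to 0.152 to 0.219 CPM. It covers counting error only, since PCR copies of a molecule could not be told from separate molecules. CPM values are not divided by gene length, so levels were compared between stages and not between genes. In bulk RNA, fewer cells of a type and less RNA per cell cannot be told apart.

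Grin2c, Glra4, P2rx6 and P2rx4 were called higher at P11, and no receptor gene was called higher at E21. Of the 10 genes, 7 had enough counts for the test, as had 14043 genes in all, and their log2 fold changes ran from -3.91 to 0.61. Across all genes tested, 16.5% were called higher at P11 and 8.16% higher at E21, 24.7% in all. At any size of change, 6 of the 7 receptor genes had an adjusted p under 0.01, as had 68.4% of all genes tested. Glra4 entered the test through its P11 libraries alone, so that its presence among the 7 depended on its change. Grin2c, with 9 counts in E21 replicate 1, and P2rx6, with 12 in E21 replicate 3, fell below the level required for library size there. Both therefore also needed P11 libraries to enter the test. Glra2 and Grik2 changed by less than the fold threshold, in opposite directions, and Grik1 did not pass the test. Chrna9, Chrne and P2rx7 had too few counts for the test and are described by their counts. The CPM of the E21 and P11 libraries did not overlap for 6 of the 7 genes tested, as for 71.3% of all genes tested. The called genes were spread over 3 of the 5 receptor classes, with 1 NMDA, 1 glycine and 2 P2X receptor genes.

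**Figure D1:**
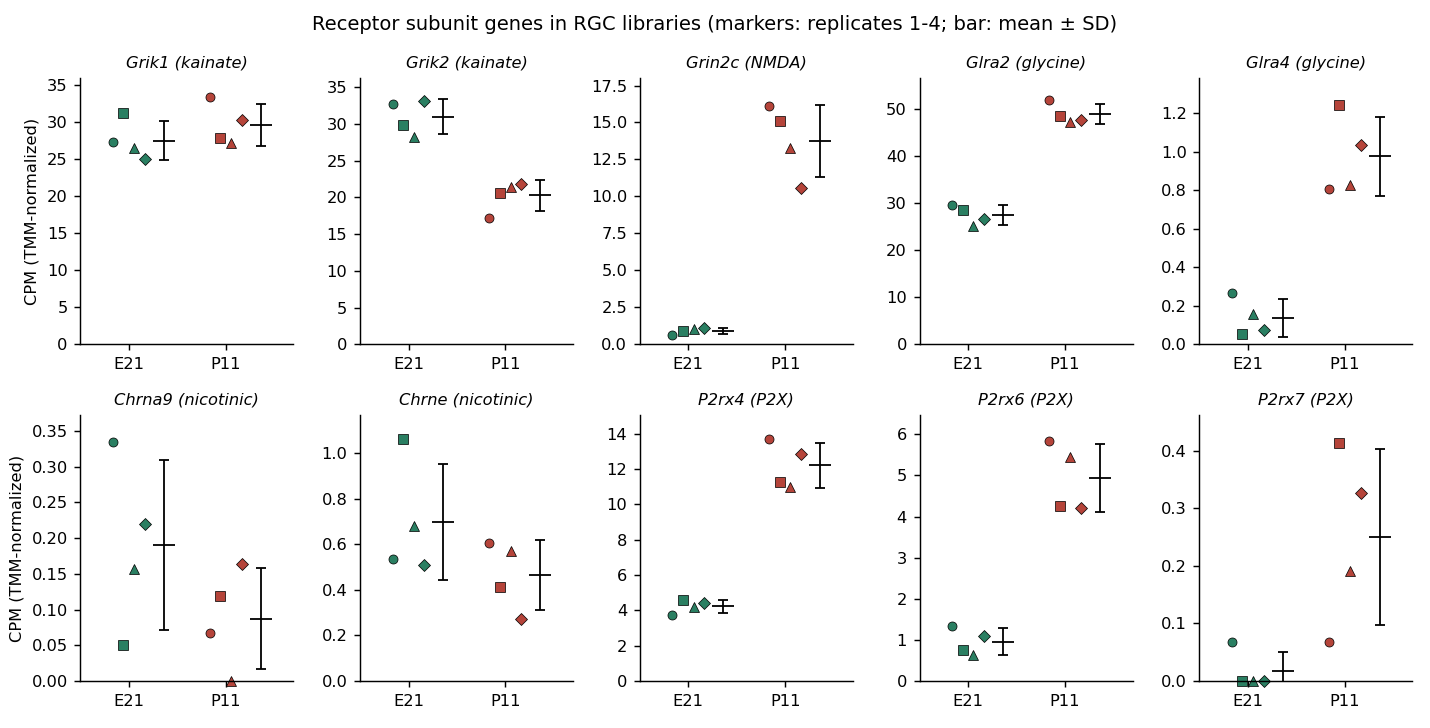
TMM-normalized CPM (y axis, from 0, on a scale of its own for each gene) of the 10 receptor genes in the 4 E21 and 4 P11 libraries. Points are libraries, with 1 marker shape for each replicate number, and bars are the mean ± SD, cut at 0 for P2rx7 at E21. The stages lie apart for Grik2, Grin2c, Glra2, Glra4, P2rx4 and P2rx6 and overlap for Grik1, Chrna9 and Chrne.

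**Figure D2:**
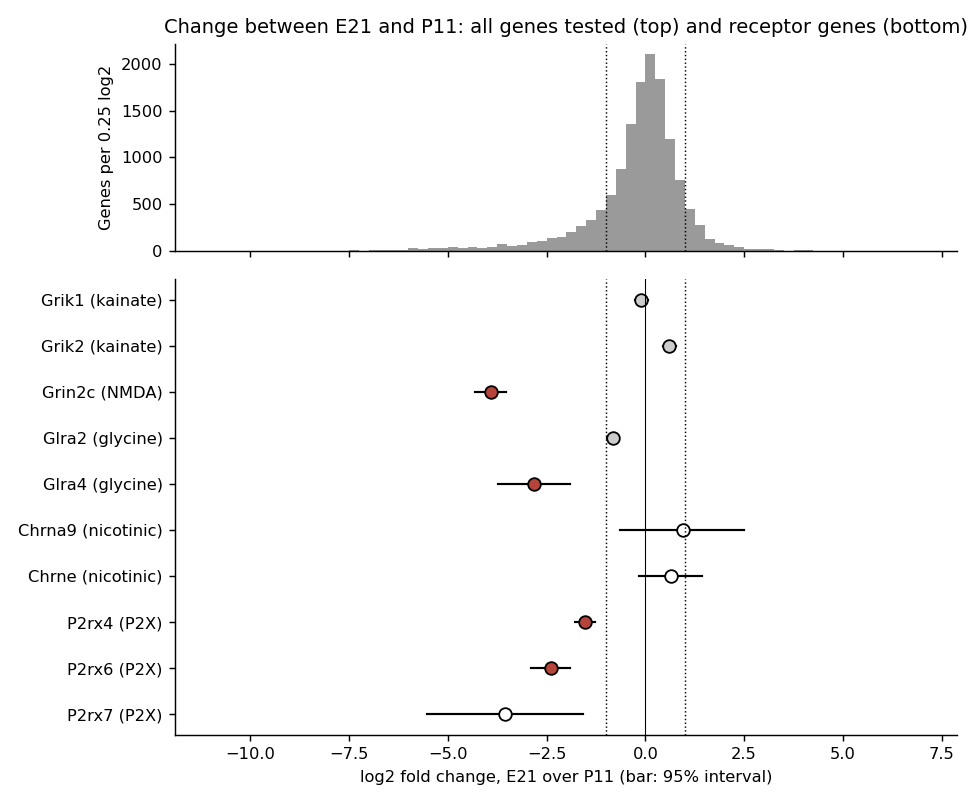
Log2 fold change of E21 over P11 (x axis) as a histogram of all genes tested (top) and for each receptor gene (bottom), with its 95% interval. Red points were called, grey points were tested and not called, and open points come from a fit without the expression filter. The open point of P2rx7 depends on the count added to its empty libraries. Dotted lines mark the fold threshold of 1. Grin2c lies farthest to the left among the genes tested, and Grik2 is the only one of them to the right of 0.

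The sequence before the start of each gene was taken from RefSeq, in which all 10 genes were matched by symbol in the build GRCr8. The reads were counted on another build, Rnor_6.0, and the start used in RGCs was not measured. The study searched the open chromatin of promoters for the motif of CREB, which binds the cAMP response element. It scored weighted matches and described genes higher at E21 that held the motif. The search here matched exact letters in a shorter window, whether or not the chromatin was open. Whether the study's CREB motif lies near these genes was therefore not tested. Shown are the 250 bases before the start of the 4 genes called higher at P11 and of Grik2, the tested gene higher at E21. They are written 5′ to 3′ on the strand of the gene in lower case, and capitals mark a match to a motif searched.
Grin2c, chr10:101005139-101005388, minus strand: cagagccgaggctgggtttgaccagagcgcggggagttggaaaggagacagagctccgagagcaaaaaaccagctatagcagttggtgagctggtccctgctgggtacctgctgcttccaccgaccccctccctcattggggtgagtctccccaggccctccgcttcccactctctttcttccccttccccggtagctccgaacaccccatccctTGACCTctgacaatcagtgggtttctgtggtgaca
Glra4, chrX:104923329-104923578, minus strand: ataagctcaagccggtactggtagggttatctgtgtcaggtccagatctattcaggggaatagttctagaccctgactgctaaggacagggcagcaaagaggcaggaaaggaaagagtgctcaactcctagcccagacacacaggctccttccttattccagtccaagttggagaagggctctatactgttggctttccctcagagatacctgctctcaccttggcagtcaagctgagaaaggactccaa
P2rx4, chr12:39523090-39523339, minus strand: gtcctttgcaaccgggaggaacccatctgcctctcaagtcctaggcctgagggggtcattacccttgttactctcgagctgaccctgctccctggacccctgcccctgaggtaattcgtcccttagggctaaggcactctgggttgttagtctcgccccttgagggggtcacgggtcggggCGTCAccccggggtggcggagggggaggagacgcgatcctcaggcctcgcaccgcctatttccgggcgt
P2rx6, chr11:96954204-96954453, minus strand: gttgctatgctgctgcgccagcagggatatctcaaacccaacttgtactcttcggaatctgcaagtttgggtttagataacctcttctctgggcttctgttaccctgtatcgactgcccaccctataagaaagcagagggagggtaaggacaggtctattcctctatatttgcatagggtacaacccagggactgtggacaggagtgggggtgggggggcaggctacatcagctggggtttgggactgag
Grik2, chr20:54415284-54415533, minus strand: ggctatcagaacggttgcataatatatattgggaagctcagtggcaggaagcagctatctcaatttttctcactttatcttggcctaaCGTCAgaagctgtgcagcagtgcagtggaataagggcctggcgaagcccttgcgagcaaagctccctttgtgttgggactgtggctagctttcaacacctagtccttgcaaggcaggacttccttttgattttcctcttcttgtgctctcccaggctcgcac

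The motifs searched on both strands were the cAMP response element TGACGTCA, its shorter core TGACG, which also lies within the full element, the E-box CACGTG, the GC box GGGCGG and the nuclear receptor core AGGTCA. The full cAMP response element was in none of the 10 windows and in 1.59% of the 33469 windows of this length in the table. The core TGACG was matched once before P2rx4, starting 69 bases before the start, and once before Grik2, starting 162 bases before it, both on the opposite strand. These genes changed in opposite directions, and 18.2% of all windows held that core. AGGTCA was matched on the opposite strand 35 bases before the start of Grin2c, as in 14.1% of all windows. GC boxes were found before Glra2 and P2rx7, as in 30.5% of all windows, and the E-box, in 5.59% of all windows, was before none of the 10 genes. No motif searched was in the windows of Glra4 and P2rx6.

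Of the kainate receptor genes, Grik2 was lower at P11 by less than the fold threshold, and Grik1 did not pass the test. Grik2 (ENSRNOG00000000368) encodes GluK2, and its level was 32.7, 29.9, 28.2 and 33.2 CPM in the E21 libraries and 17.2, 20.6, 21.4 and 21.8 CPM in the P11 libraries. Every E21 library lay above every P11 library. The mean was 31.0 ± 2.35 CPM at E21 against 20.3 ± 2.11 CPM at P11 (log2 fold change 0.61, SE 0.08, 95% interval 0.44 to 0.78, edgeR adjusted p = 2.92e-06). The change was larger than the spread between libraries and below the fold threshold. Grik1 (ENSRNOG00000001575) encodes GluK1, which in the retina is known for its role at OFF bipolar cell synapses. It was at 27.2, 31.1, 26.4 and 24.99 CPM at E21 against 33.4, 27.7, 27.1 and 30.2 CPM at P11. The stages overlapped, with means of 27.4 ± 2.63 CPM and 29.6 ± 2.83 CPM. Its log2 fold change was -0.10 (SE 0.08, edgeR adjusted p = 0.246), and the 95% interval of -0.27 to 0.07 left no room for a change as large as that of Grik2. Both genes had over 300 counts in nearly every library, the exception being 256 counts of Grik2 in P11 replicate 1.

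Because counts of both genes come from the same library, the ratio of Grik2 to Grik1 does not depend on the scaling between libraries. The log2 ratio of Grik2 to Grik1 counts was 0.26, -0.06, 0.09 and 0.41 at E21 and -0.96, -0.43, -0.34 and -0.47 at P11. All 4 P11 ratios were below all 4 E21 ratios, and P11 replicate 1 was the lowest. The mean log2 ratio was 0.18 ± 0.20 (SD, n = 4) at E21 and -0.55 ± 0.28 (SD, n = 4) at P11, a difference of 0.73. In counts, there were 0.961 to 1.33 Grik2 reads per Grik1 read at E21 and 0.516 to 0.790 at P11. As these 2 genes differ in length, the ratio is of reads and not of transcripts.

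Grin2c (ENSRNOG00000003280), the gene of the NMDA receptor subunit GluN2C, changed most among the receptor genes tested. It had 9, 18, 19 and 15 counts in the E21 libraries and 240, 255, 209 and 194 counts in the P11 libraries. These correspond to 0.602, 0.911, 0.996 and 1.10 CPM at E21 against 16.1, 15.1, 13.2 and 10.6 CPM at P11. The stages lay far apart, and the lowest P11 library, replicate 4, was several-fold above the highest E21 library. The mean rose from 0.901 ± 0.213 CPM to 13.8 ± 2.43 CPM, which was 15.1-fold higher at P11. The log2 fold change was -3.91 (SE 0.19, 95% interval -4.31 to -3.52, edgeR adjusted p = 7.49e-12), and 2.77% of all genes tested had a larger change in either direction. GluN2C-containing receptors are known for weak magnesium block. Genes of the other NMDA receptor subunits were not analysed here, so the share of Grin2c among them is not known. The level at E21 was above the floor in all 4 libraries.

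Both glycine receptor genes were higher at P11, at very different counts. Glra2 (ENSRNOG00000003313) encodes the alpha 2 subunit, which is known as the main form of the immature nervous system and is also used by amacrine and ganglion cells of the mature retina. Its level was 29.6, 28.6, 25.1 and 26.5 CPM at E21 against 51.9, 48.4, 47.2 and 47.7 CPM at P11. All P11 libraries were above all E21 libraries, and the P11 libraries were the most even of any receptor gene, with a coefficient of variation of 4.35%. The mean was 27.5 ± 2.06 CPM at E21 against 48.8 ± 2.12 CPM at P11 (log2 fold change -0.83, SE 0.06, 95% interval -0.96 to -0.70, edgeR adjusted p = 2.45e-09). The whole interval lay inside the fold threshold. Glra4 (ENSRNOG00000002391) encodes an alpha 4 subunit. It had 4, 1, 3 and 1 counts at E21 and 12, 21, 13 and 19 counts at P11. In CPM these were 0.267, 0.0506, 0.157 and 0.0731 at E21 and 0.806, 1.24, 0.824 and 1.04 at P11, so that E21 replicate 1 alone of the E21 libraries was above the floor. The log2 fold change was -2.81 (SE 0.43, 95% interval -3.72 to -1.90, edgeR adjusted p = 1.55e-05), and its wide interval goes with the few E21 counts. Only 0.399% of the genes tested had a lower mean CPM than Glra4.

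The log2 ratio of Glra4 to Glra2 counts, with 0.5 added to each, was -6.62, -8.56, -7.10 and -7.92 at E21 and -5.95, -5.25, -5.79 and -5.49 at P11. The stages did not overlap, with means of -7.55 ± 0.86 and -5.62 ± 0.31 (SD, n = 4). Even at P11 there were at most 0.0263 Glra4 reads per Glra2 read.

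The P2X receptor genes P2rx4 and P2rx6 were higher at P11, and P2rx7 was near the floor. P2rx4 (ENSRNOG00000001300), whose product is a calcium-permeable P2X channel, was at 3.75, 4.61, 4.19 and 4.38 CPM at E21 against 13.7, 11.3, 10.97 and 12.9 CPM at P11. The stages were well apart, with means of 4.23 ± 0.366 CPM and 12.2 ± 1.29 CPM. This was 2.87-fold higher at P11 (log2 fold change -1.52, SE 0.12, 95% interval -1.77 to -1.27, edgeR adjusted p = 3.77e-09). P2rx6 (ENSRNOG00000001873) encodes a subunit that is known to form channels mainly together with other P2X subunits. It was at 1.34, 0.759, 0.629 and 1.10 CPM at E21 against 5.84, 4.26, 5.45 and 4.20 CPM at P11. No E21 library reached the level of any P11 library. The means were 0.956 ± 0.322 CPM and 4.94 ± 0.836 CPM, 5.26-fold higher at P11 (log2 fold change -2.40, SE 0.23, 95% interval -2.89 to -1.90, edgeR adjusted p = 6.34e-08).

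The log2 ratio of P2rx6 to P2rx4 counts was -1.46, -2.56, -2.69 and -1.96 at E21 and -1.22, -1.40, -1.0 and -1.61 at P11. The stages overlapped here, since E21 replicate 1 was above P11 replicate 4. The means were -2.17 ± 0.57 and -1.31 ± 0.26 (SD, n = 4), and the difference of -0.86 rested on 12 to 20 P2rx6 counts per E21 library.

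P2rx7 (ENSRNOG00000001296), the gene of a P2X receptor opened by high ATP and known best from microglia and other immune cells, had 1, 0, 0 and 0 counts at E21 and 1, 7, 3 and 6 counts at P11. P11 replicate 1 thus had no more counts than E21 replicate 1, and the other P11 libraries were higher. Over the stage, 17 counts at P11 stood against 1 at E21, a ratio of 17.4 at equal depth with a 95% counting interval of 2.73 to 727 (exact Clopper-Pearson). The two-sided exact permutation test on CPM gave p = 0.0286, the smallest that 4 libraries against 4 can give, in which 0.0671 CPM in P11 replicate 1 ranked above 0.0669 CPM in E21 replicate 1 through the scaling alone. In the edgeR fit without the expression filter, which called 12.9% of its 22557 genes higher at P11 and 5.79% higher at E21, P2rx7 passed both thresholds (adjusted p = 0.00127). Its fitted fold change is not given, because it depends on the count added to the empty libraries.

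In RefSeq, P2rx7 is the next protein-coding gene to P2rx4, and P2rx4 overlaps Camkk2 while P2rx6 overlaps Lrrc74b. Whether the counting used the strand is not given in the sources used here. Reads of overlapping genes could thus be left out as ambiguous or be counted on the wrong gene. Camkk2, a calmodulin-dependent kinase kinase, went the other way from P2rx4, with 91.1 ± 6.07 CPM at E21 against 67.8 ± 4.43 CPM at P11 (log2 fold change 0.43, SE 0.06, edgeR adjusted p = 3.06e-06). Lrrc74b had at most 4 counts in any library, fewer than P2rx6 in every library. Chrne overlaps the protein-coding genes C10h17orf107 and Gp1ba, and Grik1 overlaps LOC102549158, and their counts were not analysed here.

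The nicotinic receptor genes had few counts at both stages, and no difference was detectable at this depth. Chrna9 (ENSRNOG00000002484) encodes the alpha 9 subunit, known from cochlear hair cells. It had 5, 1, 3 and 3 counts at E21 and 1, 2, 0 and 3 counts at P11, so that E21 replicate 1 alone was above the floor (two-sided exact permutation test on CPM, p = 0.229). Chrne (ENSRNOG00000003777) encodes the epsilon subunit of the mature muscle receptor. It had 8, 21, 13 and 7 counts at E21 and 9, 7, 9 and 5 counts at P11, with E21 replicate 2 the highest. The means of Chrne were 0.698 ± 0.255 CPM and 0.465 ± 0.153 CPM, the stages overlapped, and the exact permutation test gave p = 0.171. Without the expression filter, the log2 fold change of Chrne was 0.64 (SE 0.40, edgeR adjusted p = 0.182), with a 95% interval from -0.15 to 1.43. That of Chrna9 ran from -0.63 to 2.5, so changes of the size of the fold threshold remained possible for both genes. With so few Chrna9 counts, the ratio of Chrne to Chrna9 varied by more within a stage than between stages, with a mean log2 ratio of 1.88 ± 1.42 (SD, n = 4) at E21 and 2.29 ± 1.54 (SD, n = 4) at P11.

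**Figure D3:**
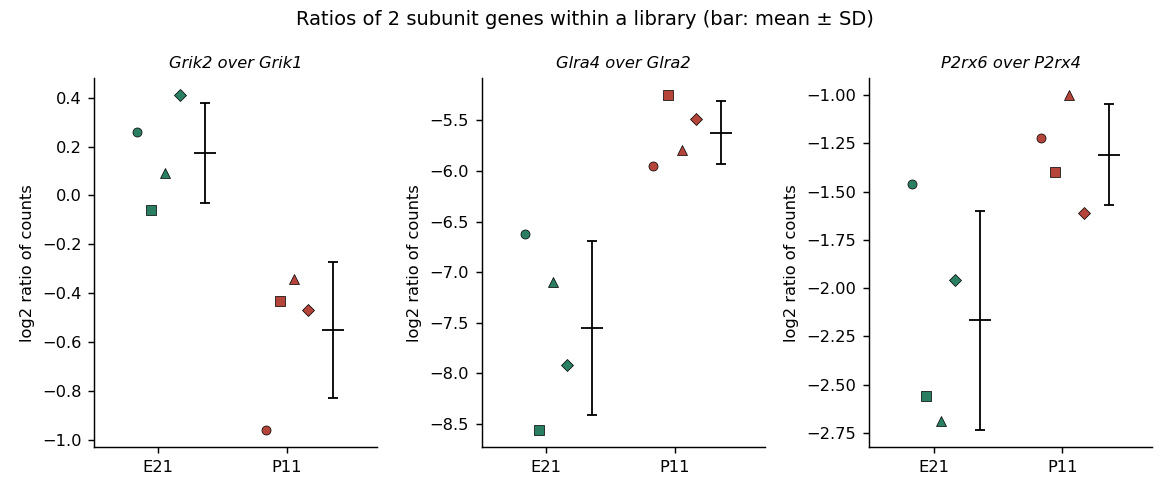
Log2 ratio of the counts of 2 receptor genes of a class in the same library (y axis) for the 4 E21 and 4 P11 libraries, with 0.5 added to each count. Points are libraries, with 1 marker shape for each replicate number, and bars are the mean ± SD. Grik2 over Grik1 falls and Glra4 over Glra2 rises from E21 to P11 with no overlap, while P2rx6 over P2rx4 overlaps.

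The libraries of a stage varied by different amounts for different genes. Grik1 had a coefficient of variation of 9.59% at E21, where counting alone would give 4.63%, and Grik2 had 10.4% at P11 against 5.46% from counting. Grin2c varied by 23.7% at E21, close to the 25.6% that counting alone would give, and by 17.7% at P11, where counting would give 6.67%. For Glra4 and P2rx4, the values at E21 were 71.7% and 8.65%, against 66.7% and 11.8% from counting. For P2rx6 and Chrne, the values at E21 were 33.7% and 36.5%, against 25.4% and 28.6% from counting.

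Another list holds genes that bind, place or modify glutamate receptors, and relatives of such genes. It was counted in the same fit as 14 genes, all of which were tested. Of these, 6 were called higher at P11, 1 was called higher at E21 and 7 were not called, where 16.5% of all genes tested were called higher at P11 and 8.16% higher at E21. Their log2 fold changes had a median of -0.61, and C1ql1 entered the test through its P11 libraries. Nsf, whose product binds the AMPA receptor tail in addition to its role in membrane fusion, rose from 204 ± 28.3 CPM to 1389 ± 78.1 CPM. Nptx2, a pentraxin that clusters AMPA receptors, rose from 59.7 ± 5.97 CPM to 347 ± 26.5 CPM. Adarb1, the enzyme that edits the RNA of AMPA and kainate receptor subunits, rose 3.37-fold (log2 fold change -1.75, SE 0.07, edgeR adjusted p = 1.89e-11). C1ql1, a secreted synaptic organizer of the C1q family, had 0, 2, 6 and 5 counts at E21 and 276 to 400 counts at P11. Nptx1 and Tspan7 were also called higher at P11, with log2 fold changes of -1.06 and -1.21. Cbln1, a secreted organizer that binds delta glutamate receptors, fell from 20.8 ± 2.41 CPM to 3.10 ± 0.455 CPM (log2 fold change 2.74, SE 0.12, edgeR adjusted p = 3.34e-12). Among those not called, the AMPA receptor auxiliary subunit genes Cacng4 (0.84) and Cacng5 (-0.35) had log2 fold changes of opposite sign. The scaffold genes Grip1 (-0.06) and Dlg3 (-0.65), Gopc (0.14), Cnih4 (0.28) and the adhesion gene Nlgn3 (-0.58) made up the rest.

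Tmem35a, which encodes the nicotinic receptor chaperone NACHO, was at 59.5 ± 2.06 CPM at E21 against 54.7 ± 1.59 CPM at P11 and was not called (log2 fold change 0.12, edgeR adjusted p = 0.0278). Of 5 G protein-coupled receptor genes for glutamate, nucleotides and adenosine, the adenosine receptor genes Adora1, Adora2a and Adora2b were called higher at P11. Of all genes tested, 16.5% were called higher at P11 and 8.16% higher at E21. Adora2a, with 1 to 3 counts per E21 library, and Adora2b, with 5 to 11, entered the test through their P11 libraries alone. Adora1 was at 5.82 ± 1.02 CPM at E21 against 321 ± 50.8 CPM at P11 (log2 fold change -5.77, SE 0.16, edgeR adjusted p = 3.45e-09). P2ry4, a nucleotide receptor gene, was called higher at E21 with 10 to 19 counts against 5 to 8. It entered the test through its E21 libraries alone, and its call was lost in 7 of the 16 alternative fits that could test it. Grm6, the glutamate receptor gene of ON bipolar cells, had a log2 fold change of 0.82 and was not called. Of the 7 GABA-A receptor subunit genes reported, 6 were called higher at P11, against 16.5% of all genes tested (median log2 fold change -2.55 over these 6), and Gabrr3 had too few counts. Among these 6, Gabrg1 had 5 counts in E21 replicate 1 and needed P11 libraries to enter the test.

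**Figure D4:**
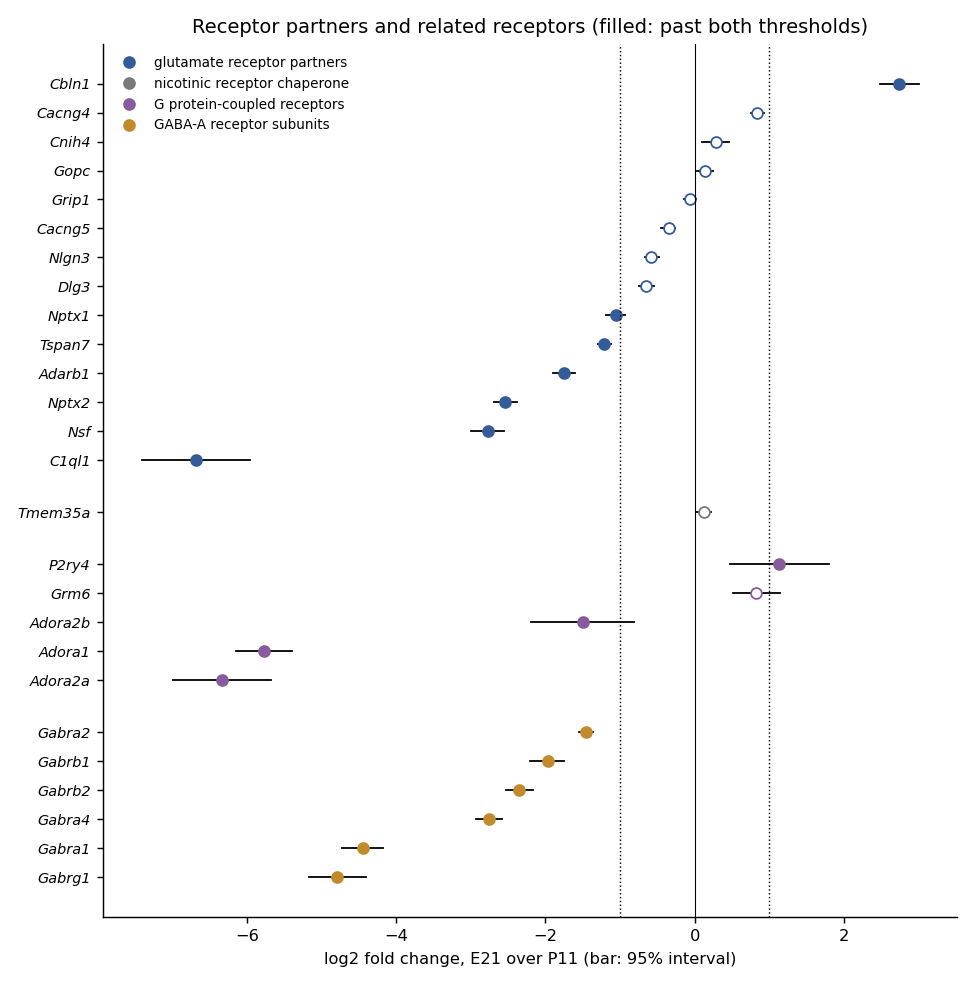
Log2 fold change of E21 over P11 (x axis) with its 95% interval for the tested genes of 4 lists, receptor partners, a chaperone, G protein-coupled receptors and GABA-A receptor subunits. Filled points were called and open points were not, and dotted lines mark the fold threshold of 1. Cbln1 and P2ry4 are the filled points to the right of 0.

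For each of the 7 receptor genes tested, the gene with a symbol whose log2 CPM followed it most closely over the 8 libraries was found among 1778 genes, by the Euclidean distance between profiles centred on their own means. The nearest gene to Grin2c was Eln, the elastin gene, with a distance of 0.665. The median distance to Grin2c over all genes compared was 5.43. Those nearest to the P2X genes were Deptor for P2rx4, at 0.275, and Creg1 for P2rx6, at 0.681. Magee1 was nearest to Glra2, Scarf2 to Glra4, Cobl to Grik2 and Gadd45gip1 to Grik1, at distances of 0.175, 0.624, 0.206 and 0.224. The median distance was smaller for these genes than for Grin2c. It was 2.30 for P2rx4, 3.41 for P2rx6, 1.46 for Glra2, 3.305 for Glra4, 1.08 for Grik2 and 0.885 for Grik1. For the genes that changed between the stages, these distances mostly measure a shared change, which does not hold for Grik1. The log2 CPM had a prior count of 2, which shrinks differences at low counts such as those of Glra4. The distances are a description of 8 libraries.

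Markers of other retinal cells were measured in the same libraries, because some receptor genes are used by those cells too. The defining markers of RGCs were not paired with symbols and were not analysed here. Across all genes tested, 16.5% were called higher at P11 and 8.16% higher at E21. Of 4 vascular markers, 3 were called higher at P11 and Erg had too few counts. Flt1, with 0 to 5 counts per E21 library, entered the test through its P11 libraries alone. The summed level of the 4 vascular markers was 3.04 to 4.90 CPM at E21 against 275 to 548 CPM at P11. In P11 replicates 1 to 4 the vascular sum was 366, 456, 275 and 548 CPM. Of 3 amacrine and horizontal cell markers, Gad1 was called higher at P11, from 0.855 ± 0.280 CPM to 13.8 ± 3.39 CPM. Prox1 was called higher at E21. Gad1, with 9 counts in E21 replicate 3, needed P11 libraries to enter the test. The sum of these 3 markers fell from 427 to 444 CPM at E21 to 316 to 325 CPM at P11. Most of that sum was Pax6. The study names Pax6 among the factors that regulate RGC differentiation, so this sum need not follow amacrine and horizontal cells. Of 3 photoreceptor markers, 1 was called higher at P11, with sums of 4.76 to 6.42 CPM and 11.4 to 18.9 CPM. That marker, Pde6b, had 0 to 4 counts per E21 library and entered the test through its P11 libraries alone. Of 4 bipolar cell markers, 1 was called higher at P11, with sums of 41.4 to 48.9 CPM and 87.2 to 94.4 CPM. Most of the bipolar cell sum was Prkca, and Grm6 and Lhx4 had lower means at P11 than at E21. Gfap was at or below the floor in all 8 libraries, and it and Sox9, the glial markers, summed to 0.602 to 0.810 CPM at E21 against 0.273 to 0.507 CPM at P11. The microglial markers Ptprc and Aif1 summed to 0.0669 to 0.262 CPM at E21 against 0.134 to 0.951 CPM at P11. In P11 replicates 1 to 4 these sums were 0.134, 0.177, 0.951 and 0.817 CPM, beside 1, 7, 3 and 6 P2rx7 counts. Aif1 had 1 count over the E21 libraries and 21 over the P11 libraries, and Ptprc had 11 and 14, where P2rx7 had 1 and 17. All these values rest on few counts. The part of these cells in the changes of Grin2c, Glra4, P2rx4, P2rx6 and P2rx7 was not tested.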

How the data were processed

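RNA of immunopanned RGCs was measured by RNA-seq in 4 litters at E21 and 4 at P11. The authors trimmed reads with cutadapt 1.16, aligned them with STAR 2.5.3a to Rnor_6.0 and used HTSeq 0.6.1 for counting. They deposited these unnormalized counts by Ensembl gene, 1 table per library. The annotation release and strand setting are not given in the sources used here. Summary rows that name no gene were left out, of which reads without a feature made up 15.4% to 19.2% of a library's records, multimapped reads 31.7% to 42.2% and ambiguous reads 0.610% to 0.805%. Columns of the authors' own comparison in the gene table were not used. Symbols came from the part of the study's gene table at hand.

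Counts were filtered with filterByExpr, TMM-normalized and tested with edgeR 4.0.16 (R 4.3.3, glmQLFit with robust estimation), with Benjamini-Hochberg adjustment over 14043 genes. Standard errors were derived from the quasi-likelihood F statistic. Exact permutation tests used scipy 1.17.1. The test was tried on simulated counts. No 2 libraries of a stage matched within sampling noise (chi-square per degree of freedom 2.86 to 8.12). Alternatives were DESeq2 1.42.0, other scalings and filters, glmTreat, an adjusted p of 0.05, a replicate block and each library left out.

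The receptor genes and lists were chosen with earlier results of these data known. Every receptor gene, list gene and marker could be named, plus the nearest gene by profile, but some list genes are not reported here and were left out of the counts and medians of their lists. Camkk2 and Lrrc74b, which overlap receptor genes, and the promoter motifs were chosen after the values were seen.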

Additional observations from a re-analysis of the deposited data

Results flagged for a closer look

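Each gene of the receptor and companion lists gave 1 set of 4 libraries at each stage. By Dixon's gap test, 3 of these 74 sets held a library far from the other 3. Chance gives about 1 in 20 for normally distributed values, so 3 sets are no more than chance would give. For P2rx7 at E21, replicate 1 stood at 0.0669 CPM, which is 1 count, and the other 3 libraries were at 0. Any single count beside 3 empty libraries gives this flag. For Nsf at E21, replicate 2 stood at 161.5 CPM, below the others at 215.1 to 221.3 CPM, and all 4 were below every P11 library. For P2ry4 at P11, replicate 3 stood at 0.507 CPM and the others between 0.327 and 0.355 CPM.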

How the results depend on the processing

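The 7 receptor genes tested kept their direction, and were called or not called as reported, in all 117 alternative values. With glmTreat, which tests against the fold threshold itself, the adjusted p of Grik2 and Glra2 became 1. With each library left out, the log2 fold change ranged from -4.03 to -3.77 for Grin2c, -3.26 to -2.51 for Glra4, -2.59 to -2.23 for P2rx6 and -1.58 to -1.46 for P2rx4. Requiring 10 counts in every library removed Grin2c and Glra4 from the test and left 2 receptor genes called higher at P11, 1523 genes in all and 1 G protein-coupled receptor, and without a filter 5 receptor genes were called, P2rx7 among them. With glmTreat, 668 genes were called higher at E21. The number of G protein-coupled receptor genes called higher at E21, which was 1 (P2ry4), was 0 without a filter, with 10 counts required, with DESeq2 and with glmTreat, and 0 to 1 with each library left out. It was 0 without E21 replicate 3 and without P11 replicates 1, 2 or 4. Nptx1 and Adora2b lost their calls with glmTreat alone. No scaling moved the median of all genes by more than 0.054.

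The replicate numbers pair no litters in the labels, and same-numbered libraries deviated together with correlations of -0.0268 to 0.078, and 2 of 4 E21 libraries correlated best with the P11 library of their own number. With the replicate number as a block, 4 receptor genes were called higher at P11 and 0 higher at E21. At this depth, the 3 receptor genes with fewest counts could not be compared more finely.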
